A study of Columba livia with 9 samples.

Results

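The 100 most abundant mRNAs of the pigeon bursa of Fabricius (BF) were described. They were chosen by their mean level over 9 libraries, as the 100 of 13072 listed mRNAs with the highest mean TPM (a read share corrected for transcript length and scaled to a fixed total), or 0.765% of the mRNAs. Their mean TPM ranged between 635 and 8398. BFs came from White-King pigeon squabs (Columba livia) at 1D (1 day old), 13D (13 days old) and 26D (26 days old). There were 3 squabs per stage, each with its own library, and all squabs were labelled female. Ribosomal RNA was removed from the total RNA of the BF before strand-specific libraries were made. The labels give no treatment, and the groups are set apart by age. Because the members were selected on these TPM values, their high level and their share are a description and were not tested. The stages played no part in the choice, other than through the mean of all 9 libraries.

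The BF is an organ of birds in which B cells multiply and diversify their receptors inside lymphoid follicles. In most tissues the top of the mRNA list is held by ribosomal proteins, translation factors, cytoskeletal proteins and mitochondrial enzymes that every cell uses. The level of an mRNA in bulk tissue combines the number of cells that express it and the amount in each cell, and these cannot be told apart here.

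Gene IDs were paired with symbols through RefSeq (assembly bColLiv1.pat.W.v2), which held 96 of the 100 members. Of the members, 56 were by symbol cytosolic ribosomal protein genes, 35 of the large and 21 of the small ribosomal subunit. A ribosomal protein gene without a gene name would not be counted among them. A further 14 had only LOC symbols and lay in a single run of neighbouring genes between WBP11 and APOLD1. There were 19 other named genes, 7 other LOC genes and 4 IDs without a symbol. The 19 were EEF1A1, TMSB4X, FTH1, SAA2, PRDX1, TPT1, CD74, EIF4A2, CKS1B, ATP5F1E, EEF1B2, NDUFA11, HSP90AA1, OAZ1, NPM1, ACTB, TEX14, NDUFA4 and CALM2. No gene of the mitochondrial genome list and no gene of the histone list was found by symbol among the 13072 mRNAs, so that these classes could not be placed by name.

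The libraries differed in ways that touch the members. By the study's own list of reads, 1D replicate 2 had the fewest mapped reads and the lowest share of reads mapped. The part of this in the levels of that library was not tested. mRNAs held between 43.5% and 59.7% of the TPM of mRNAs and lncRNAs together, and a single lncRNA, G17924, held between 13.9% and 39.0%. TPM of mRNAs therefore depends on what that lncRNA takes in each library. B lineage genes were present in every library, with CD79B, a chain of the B cell receptor complex, at 178, 171 and 290 TPM at 1D, 429, 515 and 407 at 13D and 300, 470 and 323 at 26D. The summed level of 7 T lineage genes was between 6.35 and 39.2 TPM in all libraries. A further split did not follow the stages. The log2 TPM of each mRNA above 0.5 TPM in every library was set against its own median over the 9 libraries. The median of these deviations was taken over 479 mRNAs assigned to the Z chromosome in the RefSeq table. From it the median over 9076 mRNAs of other chromosomes was subtracted. The difference was between 0.56 and 0.65 in 4 libraries (1D replicates 1 and 2, 13D replicate 1 and 26D replicate 1). It was between -0.26 and -0.08 in the other 5 libraries. These levels did not overlap although all squabs were labelled female. In birds, males carry a pair of Z chromosomes, while females carry a single Z and a W. The reason for the split was not tested.

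Of the 100 members, 5 were assigned to the Z chromosome, namely RPL37, RPS6, RPS23, RPL17 and LOC102095346. RPS6, a small subunit protein and the target of the S6 kinases, ranged between 3265 and 5151 TPM in the 4 libraries with the high Z level and between 1368 and 2291 TPM in the other 5. RPS23 ranged between 2196 and 3745 TPM in the 4 libraries and between 1299 and 1453 TPM in the other 5. RPS6, RPS23 and LOC102095346 were separated in this way, and RPL37 and RPL17 were not. The gap was narrow for LOC102095346, with 358 to 2884 TPM in the 4 libraries and 136 to 356 TPM in the other 5. Only 1 of the other 95 members, TEX14, was separated likewise, against 42 of all 13072 mRNAs, 36 of them on the Z chromosome.

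The 100 members held between 30.4% and 60.2% of mRNA TPM. Their share was 30.4%, 43.6% and 39.1% at 1D, 34.6%, 36.5% and 48.3% at 13D, and 60.2%, 42.2% and 40.5% at 26D. The stage means were 37.7% ± 6.71 at 1D, 39.8% ± 7.39 at 13D and 47.6% ± 11.0 at 26D (SD, n = 3 each), and the libraries of all 3 stages overlapped. The 26D mean was 41.3% without replicate 1, the library with the share of 60.2%. In that library 48 mRNAs were enough to reach 50% of mRNA TPM, whereas between 114 and 504 mRNAs were needed in the other 8. With mRNAs and lncRNAs together as the total, the members held 18.5% ± 1.38 at 1D, 21.7% ± 1.91 at 13D and 21.5% ± 4.14 at 26D.

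**Figure D1:**
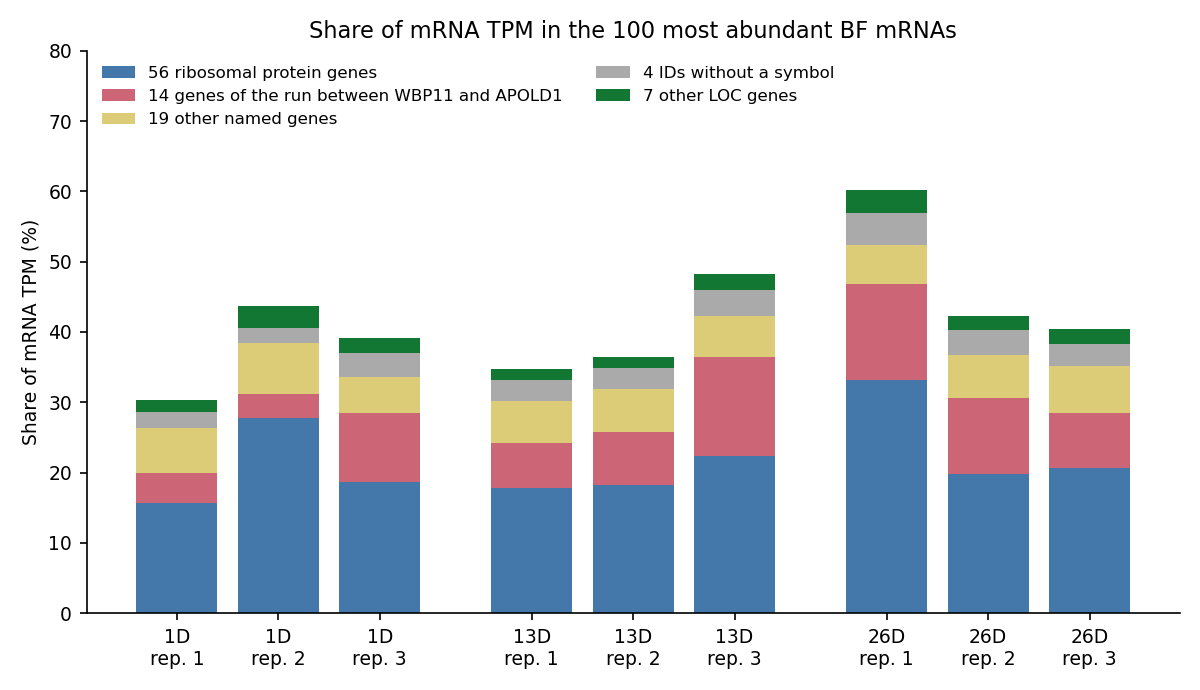
Share of mRNA TPM (vertical axis, percent) held by the 100 most abundant BF mRNAs in each library, stacked by group. The ribosomal proteins are the largest block in all 9 libraries, the run between WBP11 and APOLD1 ranges between 3.43% and 14.1%, and 26D replicate 1 stands highest at 60.2%.

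Within this share the ribosomal proteins held 15.6%, 27.7% and 18.7% of mRNA TPM at 1D, 17.8%, 18.3% and 22.3% at 13D, and 33.1%, 19.8% and 20.7% at 26D. The 14 genes of the run held 4.34%, 3.43% and 9.75% at 1D, 6.42%, 7.49% and 14.1% at 13D, and 13.7%, 10.8% and 7.74% at 26D. The other named genes varied far less, between 5.10% and 7.27% over all libraries. The high share in 26D replicate 1 therefore lay in the ribosomal proteins and the run, while that of 1D replicate 2 lay in the ribosomal proteins with the run at its lowest share.

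The members were chosen on the mean of these same libraries, so their ranks in each library are a description. Of the members, 69 ranked among the 100 highest mRNAs in each of the 9 libraries and 94 among the 200 highest. The lowest rank was 836, that of LOC102097445 in 1D replicate 2. By stage means, 85 members were among the 100 highest at every stage. Just inside the limit were CALM2, a calmodulin gene, with a mean of 689 TPM, LOC102090107 with 682 TPM and LOC102097445 with 635 TPM. Just outside were HMGB1, a chromatin protein, with 624 TPM, the RNA helicase DDX5 with 623 TPM and B2M, the light chain of class I histocompatibility molecules, with 609 TPM.

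Single members differed in how steady they were. The ratio of the highest to the lowest library was at most 2 for 39 members and over 5 for 16, of which 10 belonged to the run and 0 were ribosomal proteins. OAZ1, which restrains polyamine synthesis, was the steadiest member, with 865, 897 and 705 TPM at 1D, 908, 901 and 875 at 13D and 781, 845 and 749 at 26D. The coefficient of variation was 8.80% for OAZ1, 27.6% for the median member and 129% for LOC102095346. By stage means, 12 members were highest at 1D, 59 at 13D and 29 at 26D.

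**Figure D2:**
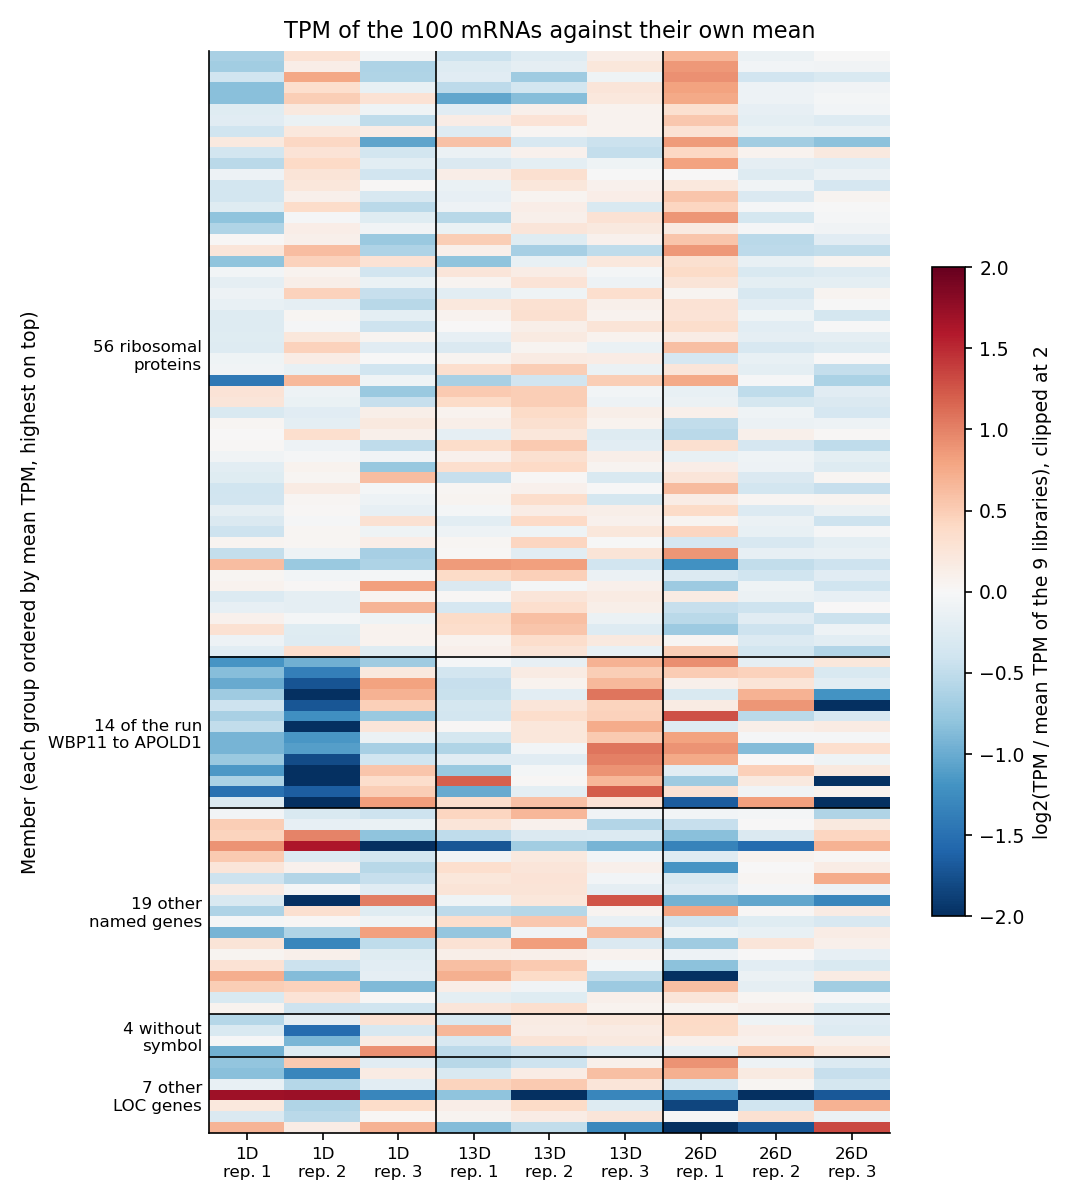
TPM of each of the 100 members in each library, as log2 of TPM over the member's own mean of the 9 libraries (colour, clipped at 2), with members in rows by group and libraries in columns by stage. The run between WBP11 and APOLD1 shows wide swings between libraries, low in 1D replicates 1 and 2. Most ribosomal proteins stay nearer their mean, apart from 26D replicate 1 and, for the more abundant ones, 1D replicate 2.

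The top of the list mixed translation genes and genes without a name. LOC102093168, a gene of the run, held the first rank with 3713, 4293 and 5156 TPM at 1D, 8169, 7490 and 13563 at 13D and 15977, 7409 and 9810 at 26D. It held up to 3.68% of mRNA TPM in a library. EEF1A1, the elongation factor that brings aminoacyl-tRNA to the ribosome, was second with 6343, 5331 and 4989 TPM at 1D, 8953, 10461 and 6275 at 13D and 6396, 6461 and 4345 at 26D. The third, the unnamed GeneID:102094672, averaged 5659 ± 1689 TPM at 1D, 6318 ± 1215 at 13D and 6367 ± 1515 at 26D (SD, n = 3 each). Ranks 4 to 7 were held by LOC102090048, GeneID:102094999, LOC110356226 and LOC102092194, with means of 5896, 5757, 5552 and 5233 TPM. LOC102092194 lay between BTK and GLA in the RefSeq table. RPL35, RPS15A and RPL37 filled ranks 8 to 10 with means of 5156, 5135 and 4682 TPM.

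Movement between stages was tested for all 13072 mRNAs with limma on log2(TPM + 0.5), using the 6 libraries of each pair. A DE call needed an adjusted p (Benjamini-Hochberg, over all mRNAs) under 0.05 together with a log2 fold change beyond 1 in either direction, with fold changes on the log2(TPM + 0.5) scale. In 13D vs. 1D, 8 members rose and 3 fell, against a background of 1.43% of all mRNAs called higher and 6.74% called lower. In 26D vs. 1D, 5 members rose and 2 fell, against 0.513% and 12.6% of all mRNAs. In 26D vs. 13D no member was called by limma, and 0.00765% of all mRNAs were called in either direction. There 9 members had an unadjusted p under 0.05, beside 1181 of all 13072 mRNAs. Any 2 of these comparisons share the libraries of a stage. An SE given below is that of limma, after its fit of the variance over all mRNAs. Against 1D that fit outweighed the spread of a gene's own libraries, so the SE hardly measures that spread. Of the 12 members called in any comparison, 8 were among the 100 highest by the mean of every stage. The other 4 (LOC102088195, LOC102097445, LOC102095346 and LOC102090107) ranked lower at a stage where their level was low and entered the members through the stages where it was high, so that the choice of members favoured a difference in them.

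The calls rested on single libraries, on the scale and on how the variance was fitted. Leaving out 13D replicate 3 left 1 member called in 13D vs. 1D, and leaving out any of the other libraries gave between 3 and 21. In 26D vs. 1D, 1 member was called without 26D replicate 1 and between 3 and 15 without any of the others. Over all mRNAs, leaving out each library gave between 412 and 1518 calls for 13D vs. 1D. For 26D vs. 1D it gave between 571 and 2240. After dividing each library by its median-of-ratios factor over 10027 mRNAs, 1 member was called lower and 0 higher for 13D vs. 1D, and 0 members were called for 26D vs. 1D, where 6 had an unadjusted p under 0.05. Over all mRNAs, this scaling moved the median log2 fold change in 26D vs. 1D to -0.08, against -0.52 before. In the same comparison the calls over all mRNAs were 171 higher and 829 lower after scaling, against 67 higher and 1642 lower before. In 13D vs. 1D the calls over all mRNAs were 203 higher and 1152 lower after scaling, against 187 higher and 881 lower before. The median over the 100 members was 0.23 for 13D vs. 1D, and 0.13 after scaling. For 26D vs. 1D it was 0.08, and 0.62 after scaling. For 26D vs. 13D it was -0.10, and 0.54 after scaling, so that its sign turned. The medians over all mRNAs before scaling were 0.00, -0.52 and -0.53 for the same comparisons.

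Counted by libraries that did not overlap, 15 members were higher and 1 was lower at 13D than at 1D, beside 5.03% and 15.4% of all mRNAs. At 26D against 1D, 7 members were higher and 6 lower, beside 1.43% and 24.4% of all mRNAs. At 26D against 13D, 1 member was higher and 15 lower, beside 0.436% and 12.7% of all mRNAs. Against 1D, the share of higher members was above the background at both later stages, and the share of lower members was below it. At 26D against 13D the share of lower members was close to that of all mRNAs. Some counted members ranked below the 100 highest at the stage where they were low, so the choice of members favoured a difference in them. Among them were LOC102088195, LOC106145697 and CALM2 at 1D (means of 629, 593 and 587 TPM). Others were GeneID:106146022 at 13D (563 TPM), and RPS3A and CKS1B at 26D (540 and 482 TPM). These shares are therefore a description, and no conclusion is drawn from them.

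**Figure D3:**
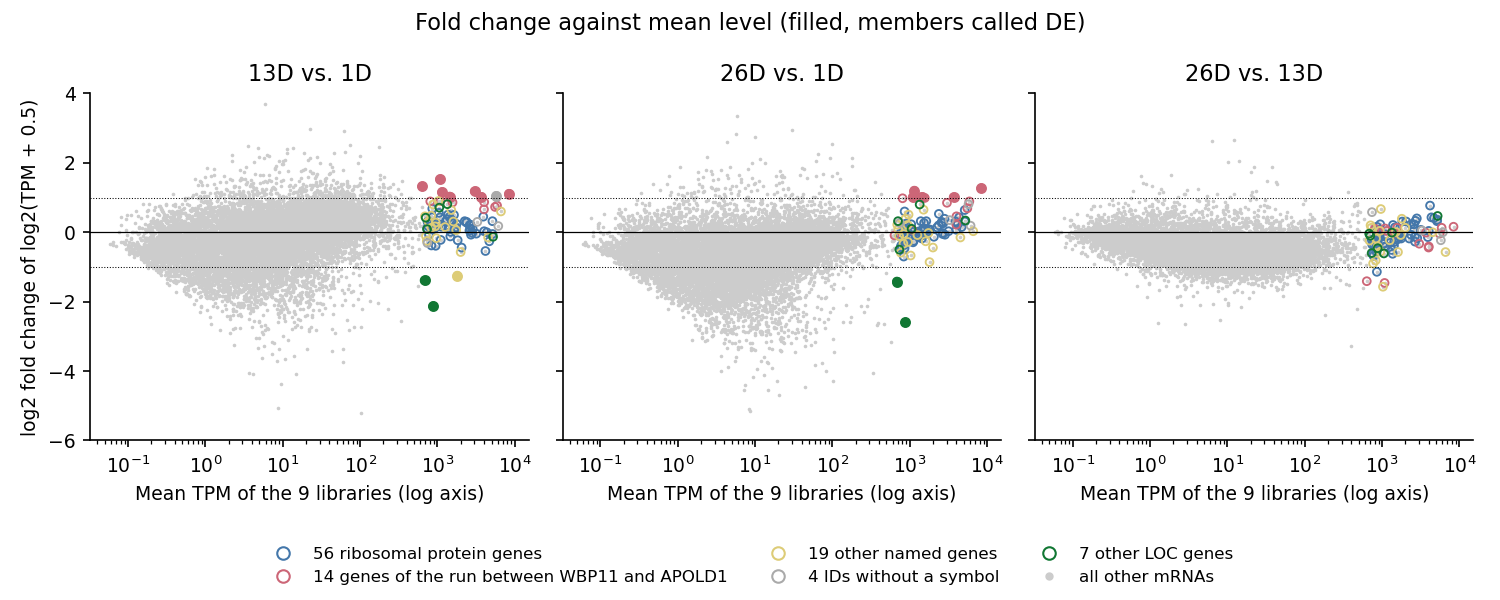
log2 fold change on the log2(TPM + 0.5) scale (vertical axis) against mean TPM of the 9 libraries (horizontal log axis) for 13D vs. 1D, 26D vs. 1D and 26D vs. 13D. Grey dots are all mRNAs, rings are members by group and filled points are members called DE, with 11 of them for 13D vs. 1D, 7 for 26D vs. 1D, 0 for 26D vs. 13D. Dotted lines mark a log2 fold change of 1 and -1.

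No ribosomal protein member was called in any comparison with limma. Ribosomal proteins build the subunits of the ribosome and are produced in step with each other in growing cells. Of the 56, 0 had an unadjusted p under 0.05 against 1D at either later stage and 3 had one in 26D vs. 13D, and after median-of-ratios scaling there were also 0 calls in each. For 13D vs. 1D the 56 log2 fold changes lay between -0.54 and 0.68, with a median of 0.16 (0.06 after scaling) and 42 of the 56 above 0. For 26D vs. 1D they lay between -0.70 and 0.64, with a median of 0.03 (0.57 after scaling) and 33 above 0. For 26D vs. 13D they lay between -1.14 and 0.77, with a median of -0.12 (0.51 after scaling) and 20 above 0. Among all 13072 mRNAs, 6559, 1773 and 1239 were above 0 in these comparisons before scaling. Of the 65 genes taken by symbol as ribosomal proteins, the 9 that were not members included RPLP0 of the ribosomal stalk at rank 106, RPL22 at rank 233 and RPL4 at rank 238. Among all 65, 0 were called higher and 1 lower for 13D vs. 1D, and 0 in either direction for 26D vs. 1D. The lower one was RPS27L at rank 1324, with a log2 fold change of -1.25. The match by symbol also took in RPS19BP1, a binding partner of a ribosomal protein, at rank 2435. Of all mRNAs, 1.43% were called higher and 6.74% lower for 13D vs. 1D, and 0.513% and 12.6% for 26D vs. 1D.

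By libraries that did not overlap, 6 ribosomal proteins were higher at 13D than at 1D, among them RPL27, RPL7A, RPLP2, RPSA and RPL8, and 0 were lower, beside 5.03% and 15.4% of all mRNAs. RPL27 of the large subunit had 1891, 2012 and 1764 TPM at 13D, against 1476, 1438 and 1113 TPM at 1D, a log2 fold change of 0.50. At 26D against 1D, RPL12 was higher, and 5 were lower, namely RPSA, RPL17, RPL10A, RPS27A and RPS3, beside 1.43% and 24.4% of all mRNAs. Some of these gaps were narrow. For RPL12 the lowest 26D library and the highest 1D library both rounded to 933 TPM. For RPSA the highest 26D library had 992 TPM and the lowest 1D library 1002 TPM. At 26D against 13D, 10 were lower, namely RPS20, RPS7, RPL5, RPL3, RPSA, RPL17, RPS3A, RPL10A, RPS3 and RPL8, beside 12.7% of all mRNAs. RPL5, which carries 5S ribosomal RNA into the large subunit, had 1221, 1044 and 1095 TPM at 26D, against 1740, 1878 and 1235 TPM at 13D, a log2 fold change of -0.51. After median-of-ratios scaling this value was 0.13.

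The ribosomal proteins also differed between squabs of a stage. In 26D replicate 1, 46 of the 56 were above the mean of the other 26D libraries, with ratios of TPM between 0.590 and 3.05. RPL37, a small protein of the large subunit, had 8801, 3580 and 3810 TPM in the 26D libraries, a ratio of 2.38. The highest ratios, up to 3.05 for RPS6, were those of RPS6, RPS23 and RPL37, all assigned to the Z chromosome. Of the 26D libraries, only replicate 1 had the high Z level. RPL17, also assigned to Z, was below the mean of the other 26D libraries there. The part of the Z level in these ratios was not tested. RPS27, of the small subunit, had 7088, 3908 and 4051 TPM, and RPL31 had 7588, 4059 and 4132 TPM. RPL35A and RPL37A, both of the large subunit, had ratios of 2.09 and 1.99. RPS12 of the small subunit was steadier, with 4990, 3566 and 3844 TPM. In contrast RPS3A, also of the small subunit, had 369, 608 and 642 TPM, a ratio of 0.590, and RPL3, which lies near the catalytic centre of the ribosome, had 800, 1040 and 1046 TPM.

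In 1D replicate 2, RPL37 and RPS3A again stood apart in these directions. There 42 of the 56 were above the mean of the other 1D libraries, with RPL37 at 3538, 8015 and 3081 TPM in replicates 1, 2 and 3 and a ratio of 2.42. RPS29, another small subunit protein, had 512, 2180 and 1305 TPM, and RPS3A had 1308, 510 and 559 TPM. RPS3A was thus low in 2 of the 3 libraries at 1D.

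In these libraries the ratio was graded by level. Of the 20 most abundant ribosomal proteins, 20 were above the others in 26D replicate 1 with a median ratio of 1.69, against 13 of the 20 least abundant with a median ratio of 1.22. In 1D replicate 2 these numbers were 20 with a median ratio of 1.53 and 9 with a median ratio of 0.972. Over the 56 genes, Pearson's r of the log2 ratio with log2 mean TPM was 0.50 in 26D replicate 1 and 0.64 in 1D replicate 2, as a description across genes whose mean includes the library itself. In 13D replicate 3 only 24 of the 56 were above the other 13D libraries, with 13 of the 20 most abundant at a median ratio of 1.11 and 6 of the 20 least abundant at a median ratio of 0.935, and Pearson's r was 0.42. The balance of the subunits changed little, with 1.48 to 1.74 times as much TPM in large as in small subunit members.

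**Figure D4:**
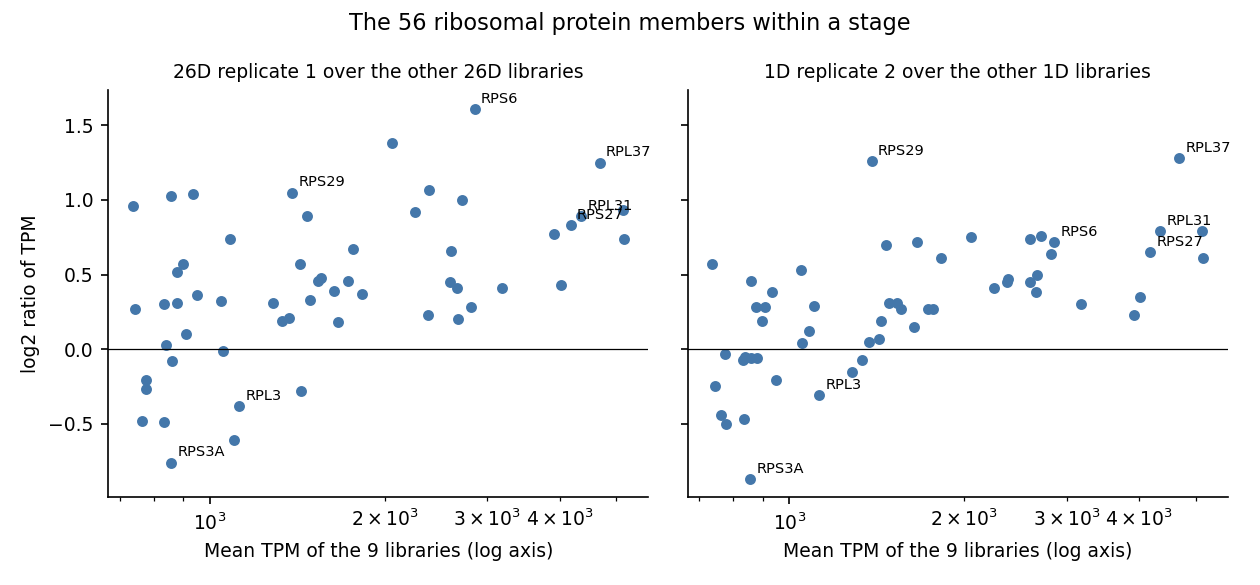
log2 ratio of TPM (vertical axis) of 26D replicate 1 over the mean of the other 26D libraries (left) and of 1D replicate 2 over the mean of the other 1D libraries (right), against mean TPM of the 9 libraries (horizontal log axis), with a point for each of the 56 ribosomal protein members. Points lie mostly above 0 on the right of each panel, and RPS3A lies lowest in both, at ratios of 0.590 and 0.547.

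Across the 9 libraries, the shares of ribosomal proteins did not form a single pattern. Pearson's r of log2 share of mRNA TPM had a median of 0.52 over 1540 pairs, which all come from the same libraries. It was 1.00 for RPL35 with RPL31 and -0.99 for RPS27 with RPS3A. RPS27 had 2343, 5854 and 5121 TPM at 1D, 2028, 2322 and 4853 at 13D and 7088, 3908 and 4051 at 26D. RPS3A had 1308, 510 and 559 TPM at 1D, 1539, 1521 and 658 at 13D and 369, 608 and 642 at 26D. RPS27 was high in the libraries in which RPS3A was low.

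The 14 members between WBP11 and APOLD1 made up most of the calls. The RefSeq table places 34 genes between these named genes, all with LOC symbols. Of the 34, 28 were among the listed mRNAs, 24 ranked among the 500 highest, and the 14 members fell within 32 consecutive genes. WBP11, a splicing-related protein, ranked 5082 and APOLD1, an endothelial protein in mammals, ranked 10781, so that the high levels ended at the borders of the run. The files and the table give these genes no name, so no function is stated. Whether histone genes, of which none was found by symbol, are among them cannot be read from these tables. How the authors' counting splits reads between genes of a run that resemble each other was not tested, and levels of single genes of the run are uncertain for that reason.

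In 13D vs. 1D the log2 fold change was above 0 for 14 of the 14, with values between 0.66 and 1.53, a median of 0.96 and 7 called higher. After median-of-ratios scaling the median was 0.86 and 14 were above 0, with 0 called. In 26D vs. 1D the median was 0.94, 13 were above 0 and 5 were called higher, and after scaling the median was 1.48 with 14 above 0 and 0 called. In 26D vs. 13D the median was -0.01 before and 0.62 after scaling. Over all 28 listed genes of the run, 8 were called higher and 0 lower for 13D vs. 1D, and 6 and 0 for 26D vs. 1D. As background, 1.43% of all 13072 mRNAs were called higher at 13D and 0.513% at 26D, both against 1D. The log2 fold change before scaling was above 0 for 6559 of all mRNAs at 13D and for 1773 at 26D.

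LOC102093168 rose in both comparisons against 1D. Its log2 fold change was 1.11 (SE 0.33, limma adjusted p = 0.0189) in 13D vs. 1D and 1.27 (SE 0.35, adjusted p = 0.00548) in 26D vs. 1D, and neither the 13D nor the 26D libraries overlapped those of 1D. These values were 0.85 without 13D replicate 3 and 0.97 without 26D replicate 1, and without the variance trend the adjusted p was 0.112 and 0.0817. LOC102088195 likewise rose without overlap. It had 684, 333 and 871 TPM at 1D, 984, 976 and 2305 at 13D and 1939, 1148 and 1079 at 26D. Its log2 fold changes were 1.16 and 1.20, or 0.75 without 13D replicate 3 and 0.79 without 1D replicate 2. By stage means LOC102088195 ranked 107 at 1D, 55 at 13D and 50 at 26D. It was thus a member through its later levels, so these values are a description and no p is given.

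LOC102092258 had 2348, 1578 and 2203 TPM at 1D, 2852, 4733 and 5080 at 13D and 8953, 2539 and 2943 at 26D. It rose with log2 fold changes of 1.02 (adjusted p = 0.0377) in 13D vs. 1D and 1.01 (adjusted p = 0.0391) in 26D vs. 1D, the second of these with 1 library far above the others. Without 26D replicate 1 the second value was 0.44. LOC102087456 had 755, 675 and 905 TPM at 1D, 945, 1385 and 3017 at 13D and 2688, 786 and 1814 at 26D. It rose by 1.03 and 1.02 on the log2 scale, or 0.57 without 13D replicate 3 and 0.63 without 26D replicate 1, and its 26D libraries overlapped those of 1D.

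The remaining calls in the run came with overlapping libraries. LOC102088375 had 3093, 3557 and 5047 TPM at 13D, against 2155, 622 and 3573 TPM at 1D, with a log2 fold change of 1.18. LOC106145754 had 2459, 1100 and 1710 TPM at 13D, against 695, 201 and 1375 TPM at 1D, with a log2 fold change of 1.53. LOC102097445 had 814, 949 and 770 TPM at 13D, against 517, 64.3 and 1135 TPM at 1D, with a log2 fold change of 1.32. In each of these 3 genes 1D replicate 2 was the lowest 1D library, and without it the values were 0.46, 0.77 and 0.13. LOC102087826 was called higher at 26D, with 941, 1520 and 1245 TPM against 492, 275 and 1608 TPM at 1D, and its log2 fold change was 1.01, or 0.45 without 1D replicate 2.

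The high-ranking genes of the run that were not called spread as widely. LOC110356226 had 2754, 1678 and 9670 TPM at 1D, 4023, 5798 and 8695 at 13D and 5935, 6634 and 4778 at 26D. LOC102092443 had 2465, 884 and 6500 TPM at 1D, 2936, 3488 and 8395 at 13D and 3264, 6481 and 1748 at 26D. LOC102093716 had 2998, 1226 and 5582 TPM at 1D, 3144, 4720 and 5420 at 13D and 4494, 7407 and 971 at 26D. All 3 were high in 1D replicate 3, which reached the level of the later stages, and low in 1D replicate 2. Leaving out 1D replicate 3 raised the number of members called to 21 for 13D vs. 1D and 15 for 26D vs. 1D. For 13D vs. 1D the calls over all mRNAs were then 986, against 1068 with all libraries.

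The genes of the run varied together between libraries. Pearson's r of log2 share of mRNA TPM had a median of 0.71 over 91 pairs within the run, and of 0.09 over 784 pairs of a run gene with a ribosomal protein, in the same 9 libraries. Outside the run, the members most like its mean profile were LOC102088359 (r = 0.95), LOC106145697 (r = 0.89), GeneID:102096406 (r = 0.83) and GeneID:102094999 (r = 0.78). LOC102088359 had 749, 545 and 1498 TPM at 1D, 1093, 1487 and 2028 at 13D and 2192, 1522 and 973 at 26D. Like the run it was lowest in 1D replicate 2 and reached the level of later stages in 1D replicate 3.

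Genes of dividing cells were also lowest in 1D replicate 2. The summed level of 16 proliferation genes ranged between 836 and 2350 TPM at 1D, 2653 and 3320 at 13D and 1622 and 2405 at 26D. PCNA, the sliding clamp of DNA replication, had 303, 84.6 and 353 TPM at 1D, 314, 392 and 372 at 13D and 215, 318 and 225 at 26D. Of the 16 genes, 2 were called higher for 13D vs. 1D and 0 for 26D vs. 1D, with medians of 0.91 and 0.16, beside 1.43% and 0.513% of all mRNAs called higher. The summed level of 16 B lineage genes ranged between 538 and 891 TPM at 1D, 1079 and 1774 at 13D and 777 and 1476 at 26D, with 4 called higher at 13D and 2 at 26D against 1D, or 6 and 5 after median-of-ratios scaling. The part of these cells in the levels of the run was not tested.

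**Figure D5:**
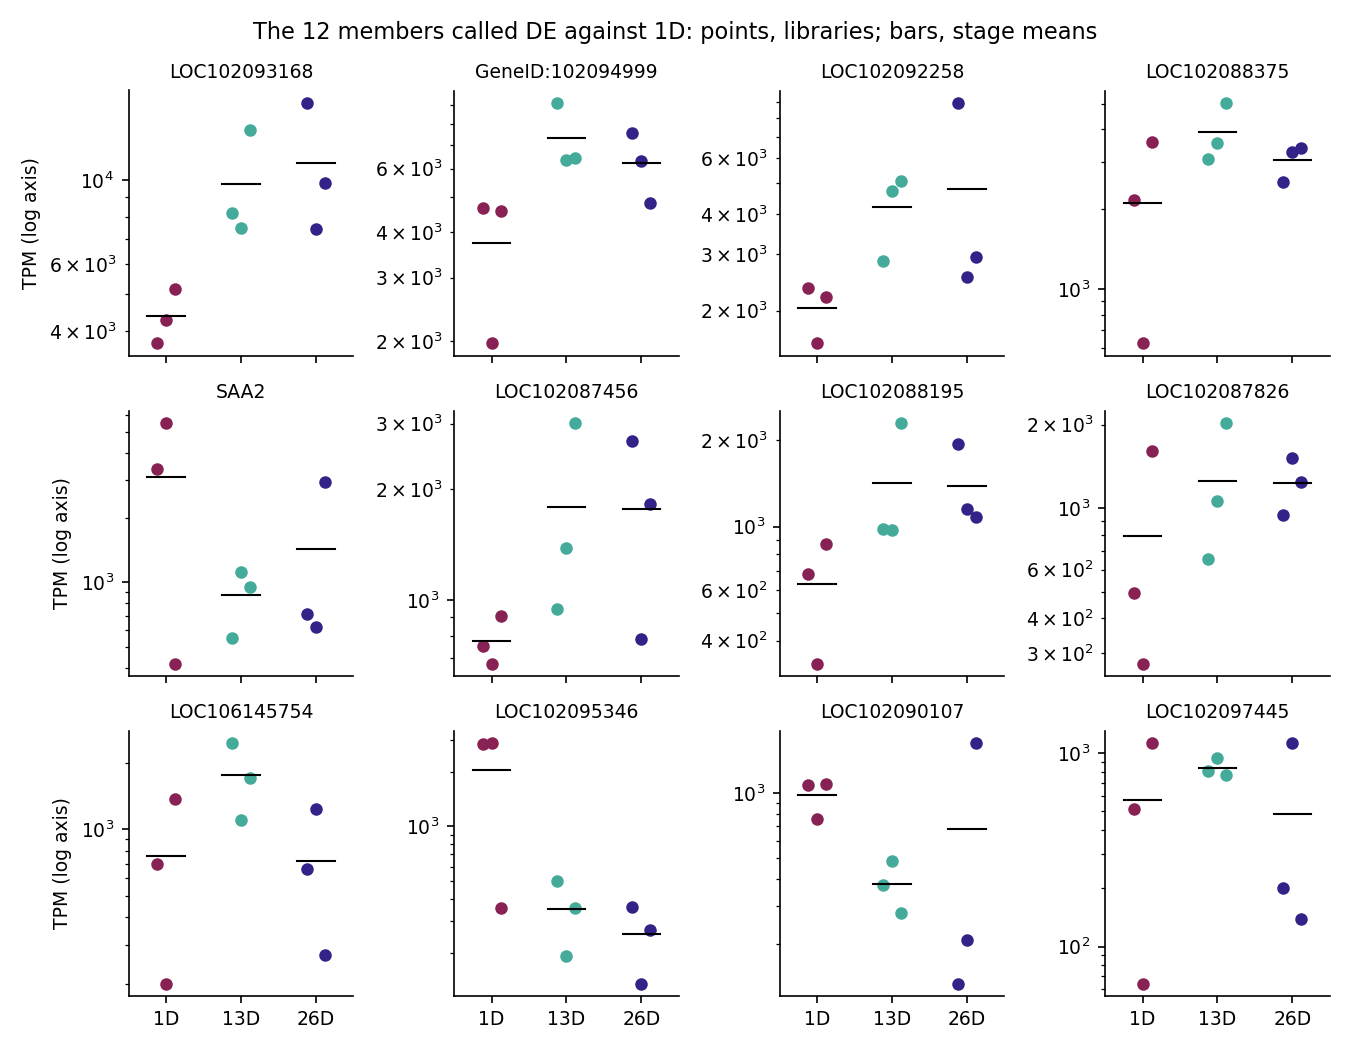
TPM (vertical log axis, its own range in each panel) of the 12 members called DE in 13D vs. 1D or 26D vs. 1D, with a point for each library and a bar for each stage mean. LOC102093168 and LOC102088195 at 13D and 26D lie above all 1D libraries, whereas SAA2 and LOC102095346 are split within 1D, with replicate 3 far below the other 1D libraries.

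Among members outside the run, GeneID:102094999, which has no symbol, rose in 13D vs. 1D. It had 9144, 6347 and 6416 TPM at 13D, against 4669, 1972 and 4598 TPM at 1D, and the libraries did not overlap. The log2 fold change was 1.05 (SE 0.34, limma adjusted p = 0.0317), or 0.63 without 1D replicate 2. At 26D it had 7539, 6309 and 4815 TPM, also above every 1D library, with a log2 fold change of 0.81 against 1D that did not pass the test.

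LOC102095346, beside GBA2 in the RefSeq table and assigned to the Z chromosome, had the lowest log2 fold change of the members in both comparisons against 1D. It had 2851, 2884 and 356 TPM at 1D, 501, 194 and 356 at 13D and 358, 136 and 270 at 26D. The log2 fold change was -2.13 (SE 0.37) in 13D vs. 1D and -2.60 (SE 0.37) in 26D vs. 1D. These SE values do not measure the wide spread of this gene within 1D. The third 1D library was at the level of the later stages, so that the libraries overlapped and the call rested on the other 1D libraries, both of which had the high Z level. By stage means it ranked 33 at 1D, 159 at 13D and 172 at 26D, and was thus a member through its 1D level, so these values are a description and no p is given. With the Z level of each library as a covariate the values were -1.44 and -1.98, and with median-of-ratios scaling they were -2.23 and -2.06 and not called.

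SAA2, an apolipoprotein of the acute phase response, fell in 13D vs. 1D. It had 549, 1118 and 949 TPM at 13D, against 3365, 5554 and 418 TPM at 1D. The log2 fold change was -1.25 (SE 0.37, limma adjusted p = 0.0152). The third 1D library was below all 13D libraries, the log2 fold change was -0.51 without 1D replicate 2, and without the variance trend the adjusted p was 0.187. At 26D it had 713, 622 and 2932 TPM. FTH1, the heavy chain of the iron store ferritin, had a like order within 1D, with 2711, 3971 and 1144 TPM at 1D, 1409, 1626 and 1654 at 13D and 1119, 1641 and 2676 at 26D, and was not called.

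LOC102090107, next to VPREB3 in the RefSeq table, fell in both comparisons against 1D. It had 1091, 755 and 1099 TPM at 1D, 374, 487 and 278 at 13D and 131, 208 and 1711 at 26D. The 13D libraries lay below all 1D libraries, with a log2 fold change of -1.39 (SE 0.35). It was -1.48 and still called with median-of-ratios scaling, and -1.18 and not called without 13D replicate 3. By stage means LOC102090107 ranked 63 at 1D, 147 at 13D and 87 at 26D. It was thus a member through its 1D and 26D levels, so these values are a description and no p is given. In 26D vs. 1D the log2 fold change was -1.42 (SE 0.37), -0.70 without 26D replicate 1 and -2.55 without 26D replicate 3. For this gene 26D replicate 3 was above every other library. That library also had the highest summed level of 7 T lineage genes (39.2 TPM, against at most 13.9 TPM in the others), of 8 myeloid genes (439 TPM, against at most 340 TPM) and of 4 plasma cell genes (792 TPM, against at most 769 TPM). Of the plasma cell genes, JCHAIN, the joining chain of IgM and IgA, had 597 TPM there and 638 TPM in 1D replicate 1, whereas MZB1, a chaperone of antibody assembly, was called higher at both later stages. The part of other cells in this result was not tested.

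Translation factors among the members were not called. EEF1A1 averaged 5554 ± 704 TPM at 1D, 8563 ± 2120 at 13D and 5734 ± 1203 at 26D (SD, n = 3 each). EEF1B2, its nucleotide exchange factor, had 1217, 1388 and 859 TPM at 13D, against 925, 970 and 900 TPM at 1D. At 26D it had 730, 808 and 764 TPM, below every 1D and 13D library, with log2 fold changes of -0.28 against 1D and -0.56 against 13D that did not pass the test (0.26 and 0.07 after scaling). EIF4A2, an RNA helicase of translation initiation, stayed between 1069 and 1511 TPM in all libraries. TPT1, the translationally controlled tumour protein, stayed between 713 and 2032 TPM. Of 23 translation factors in the list, 0 were called in 13D vs. 1D, where 1 had an unadjusted p under 0.05. This stood beside 1.43% of all mRNAs called higher and 6.74% called lower. In 26D vs. 1D, 1 was called lower, beside 12.6% of all mRNAs.

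Members of energy metabolism were ATP5F1E, a small subunit of the ATP synthase, NDUFA11 of respiratory complex I and NDUFA4, a cytochrome c oxidase subunit. ATP5F1E had 627, 1203 and 813 TPM at 1D, 672, 647 and 997 at 13D and 1673, 978 and 1076 at 26D. NDUFA11 had 490, 615 and 1662 TPM at 1D, 550, 893 and 1453 at 13D and 882, 844 and 1039 at 26D. NDUFA4 ranged between 574 and 854 TPM. The libraries of the stages overlapped in all 3 genes. Of 52 nuclear genes of oxidative phosphorylation, 0 were called in 13D vs. 1D, where 3 had an unadjusted p under 0.05. Here too 1.43% of all mRNAs were called higher and 6.74% lower. In 26D vs. 1D, 1 of the 52 was called lower, beside 12.6% of all mRNAs.

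The cytoskeletal members behaved unlike each other. TMSB4X, which binds actin monomers, averaged 4827 ± 1328 TPM at 1D, 4389 ± 1216 at 13D and 4332 ± 971 at 26D (SD, n = 3 each). ACTB, cytoplasmic actin, had 1265, 419 and 676 TPM at 1D, 1251, 1002 and 546 at 13D and 174, 708 and 855 at 26D, a range of 7.25-fold. ACTB was lowest in 26D replicate 1 and next lowest in 1D replicate 2, the libraries in which most ribosomal proteins were high.

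CD74, the chain that guides class II histocompatibility molecules, was the single named gene of antigen presentation among the members. It had 1765, 1828 and 1457 TPM at 13D and 1226, 1556 and 2515 TPM at 26D, all above the 1D libraries with 1138, 1001 and 1094 TPM. Its log2 fold changes against 1D were 0.64 at 13D and 0.65 at 26D, and neither passed the test. After median-of-ratios scaling they were 0.54 and 1.19, and were not called either. LOC102084942, which lies beside TAP1, had 848, 483 and 946 TPM at 1D, 808, 953 and 612 at 13D and 206, 558 and 1188 at 26D.

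CKS1B, a subunit of cyclin-dependent kinases, was among the members that varied most within a stage. It had 832, 253 and 2090 TPM at 1D, 973, 1196 and 2459 at 13D and 532, 499 and 414 at 26D. All 26D libraries lay below all 13D libraries, with a log2 fold change of -1.57 (SE 0.34) that was not called in the main fit. After median-of-ratios scaling it was -0.93. By stage means CKS1B had 1058 TPM at 1D, 1543 at 13D and 482 at 26D. LOC102097445, with a mean of 488 TPM at 26D, ranked 113 there, so CKS1B was below the 100 highest at 26D. It was thus a member through its 1D and 13D levels, so these values are a description and no p is given. HSP90AA1, a stress-inducible chaperone, had 1055, 358 and 617 TPM at 1D, 1082, 1579 and 721 at 13D and 537, 1041 and 943 at 26D. NPM1, a nucleolar chaperone of ribosome assembly, had 470, 713 and 674 TPM at 26D, against 1259, 1192 and 804 TPM at 13D, without overlap. The log2 fold change of NPM1 was -0.81, or -0.17 after median-of-ratios scaling, and did not pass the test.

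TEX14, known in mice from the bridges between germ cells, ranked 95 with 1025, 1007 and 394 TPM at 1D, 798, 695 and 439 at 13D and 1104, 646 and 452 at 26D. RefSeq lists 3 snoRNA genes inside TEX14, and whether their reads enter its TPM was not tested. PRDX1, a peroxide-removing enzyme, stayed between 1353 and 2503 TPM. The unnamed LOC102086007, beside SQOR, had 1434, 1513 and 1244 TPM at 13D, above all libraries of 1D (950, 708 and 909 TPM) and of 26D (842, 1081 and 830 TPM). GeneID:106146022 had 665, 1039 and 862 TPM at 26D, against 518, 553 and 618 TPM at 13D, and was the single member without overlap in the upward direction in that comparison. Neither passed the test. CALM2 had 813, 866 and 724 TPM at 13D, against 723, 515 and 522 TPM at 1D, without overlap and without a call.

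Some lists in which most genes were called had no member. Of 24 extracellular matrix genes, 22 fell for 13D vs. 1D and 23 for 26D vs. 1D, and of 13 smooth muscle genes 12 fell in each, beside 6.74% and 12.6% of all mRNAs called lower. The summed level of the matrix genes was between 760 and 1047 TPM at 13D and between 533 and 1311 TPM at 26D, against 3004 to 3929 TPM at 1D, where MGP, a matrix protein that was not called, held 1700 TPM of the 3067 TPM in replicate 2. None of the 8 endothelial, 5 epithelial, 8 myeloid or 3 erythroid genes found by symbol was a member.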

How the data were processed

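BF RNA of 9 squabs was sequenced, with 3 libraries per stage. Per the study's methods and the submitters' processing notes, reads were aligned to build Cliv_1.0 by STAR 2.6.0c, Cufflinks 2.1.1 and TACO built the transcripts, and Kallisto quantified them. The authors deposited TPM values, and an mRNA had to exceed 0.5 TPM (an lncRNA 0.1 TPM) in some library to be kept. All 18 columns were used. TPM holds no counts, so the depth and counting error of a single value are unknown, and the edgeR test of the authors could not be run.

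For each pair of stages, limma 3.58.1 (R 4.3.3; lmFit, then eBayes with a variance trend) was run on log2(TPM + 0.5). Set against 4 residual degrees of freedom, the prior ones were 375 for 13D vs. 1D, had no bound for 26D vs. 1D and were 16.2 for 26D vs. 13D. A member's own spread therefore hardly entered its SE and p against 1D. After median-of-ratios scaling the prior ones were 4.02, 4.50 and 3.44, so a member's own spread entered its p more. Replicate numbers only name squabs. Python 3.11.15, pandas 2.3.3 and matplotlib 3.10.9 were used for sums and figures. Alternatives were other pseudocounts, filters, scalings, fits and each library left out.

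The members, gene lists and alternatives were chosen with earlier results of these data known. Genes named with values were the 10 with the highest mean, those over 1% of mRNA TPM in a library, called members without overlap, members of the lists, those widest within a stage and those around rank 100. The remaining called members, RPS3A, RPL3, RPS29 and genes named beside a result were singled out after their values were seen. Symbols, neighbours and the Z assignment come from RefSeq (12387 of 13072 IDs matched) on another assembly than the authors' build, so no position is given. Sequences were not used here.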

Additional observations from a re-analysis of the deposited data

How the results depend on the processing

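Members called in 13D vs. 1D (11) were 1 with median-of-ratios scaling, 1 with scaling to non-members, 3 with all 9 libraries in one fit, 3 without the variance trend, 1 with median-of-ratios scaling and no trend, and 5 with the Z level as a covariate. Members called in 26D vs. 1D (7) were 4 with a pseudocount of 1, 0 and 0 with these 2 scalings, 4 with all 9 libraries, 1 without the trend, and 1 with median-of-ratios scaling and no trend. Members called in 26D vs. 13D (0) were 3 with only mRNAs over 0.5 TPM in at least 3 libraries and 2 with the Z level. Scaling without trend and the Z level were chosen after seeing the data.

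All mRNAs called in 13D vs. 1D (1068) were 703 with all 9 libraries and 518 with the Z level. In 26D vs. 1D (1709) they were 1000 with median-of-ratios scaling and 1019 with it and no trend. In 26D vs. 13D (1) they were 2 with a pseudocount of 0.1, 34 with the filter, 23 with the Z level, and 0 with median-of-ratios scaling, with it and no trend, with all 9 libraries and without the trend.

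With the replicate number as a block, members called were 2 for 26D vs. 1D, 2 for 26D vs. 13D, and all mRNAs called were 481 for 26D vs. 1D, 14 for 26D vs. 13D. Deviations of same-numbered libraries correlated between -0.229 and 0.288, and not every library correlated best with its own number, so the numbers were not taken as pairs.

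Leaving out each library in turn gave 1 (without 13D replicate 3) to 21 (without 1D replicate 3) members called in 13D vs. 1D, 1 (without 26D replicate 1) to 15 (without 1D replicate 3) for 26D vs. 1D, 0 to 3 (without 26D replicate 2) for 26D vs. 13D. All mRNAs called ranged between 412 and 1518, 571 and 2240, and 3 and 36. Shares of the members ranged between 34.7% and 41.3% at 1D, 35.6% and 42.4% at 13D, and 41.3% and 51.2% at 26D. The share of mRNAs and lncRNAs together was 18.5%, 21.7% and 21.5%. No called member changed direction under any setting. Of 18 called fold changes, 17 lost the call with median-of-ratios scaling and 18 kept it with a pseudocount of 0.1. The causes were not tested.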

Other observations

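A pair of genes of the run between WBP11 and APOLD1 that are not members were near 0 in some squabs and high in others. LOC102097257 had 252, 157 and 3.73 TPM at 1D, 580, 542 and 7.08 TPM at 13D and 363, 5.39 and 169 TPM at 26D. LOC102089497 had 184, 70.1 and 4.27 TPM at 1D, 560, 430 and 5.62 TPM at 13D and 359, 1.57 and 13.6 TPM at 26D. Both were low in 1D replicate 3, 13D replicate 3 and 26D replicate 2, and LOC102089497 also in 26D replicate 3, so the split ran within each stage.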
